A study of Bos taurus with 8 samples.

Results

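The Krüppel-like factors (KLF) are zinc finger transcription factors, and 10 genes of this family were examined in bovine granulosa cells kept at normal or low oxygen: *KLF2*, *KLF3*, *KLF4*, *KLF5*, *KLF6*, *KLF7*, *KLF9*, *KLF10*, *KLF13* and *KLF15*. They were chosen by name, with earlier results of these data known, from the rows of the expression table whose annotation gives 1 gene symbol. Of the 24415 rows, 9 carried a listed KLF symbol alone, 1 row for each of 9 genes. *KLF3* appears only on a row that also carries the symbol of a pseudogene, LOC100140787, and this row was therefore not counted as *KLF3*. The granulosa cells came from small and medium follicles of abattoir ovaries, were pooled and cryopreserved, and were then grown for 8 days without serum in alpha-MEM with FSH, IGF-1 and androstenedione. From day 6 to day 8 (48 h) the cells were held at 21% oxygen (normal oxygen level, NOL) or at 1% oxygen (low oxygen level, LOL), and total RNA of 4 samples per level was hybridised to Affymetrix bovine gene arrays. Both groups carried the same hormones and substrate, so that oxygen is the labelled difference. The sources used here do not say whether the 4 samples of a level were separate cultures of separate cell pools, and p-values measure the spread between these samples only. The first principal component held 73.57% of the variance and parted LOL from NOL. LOL 3 stood apart from the other LOL arrays on the second component, with an array weight of 0.5033 against 0.8464 to 1.367 for the rest, and no KLF gene lost its adjusted p without this array except *KLF4*.

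KLF proteins bind GC-rich and CACCC-type DNA through a carboxy-terminal block of zinc fingers that is nearly the same in all members, while their amino-terminal parts differ and recruit different partners. One branch (*KLF1*, *KLF2*, *KLF4*, *KLF5*, *KLF6*, *KLF7*) recruits acetyltransferases such as CBP, another (*KLF9*, *KLF10*, *KLF11*, *KLF13*, *KLF14*, *KLF16*) carries a motif that binds the SIN3 corepressor, and a further branch (*KLF3*, *KLF8*, *KLF12*) binds the corepressor CtBP. Many of the genes respond quickly to growth factors, hormones or stress, and in ovarian cells of several species KLF proteins have been linked to the ovulatory response, to steroid synthesis and to progesterone action.

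Of the 9 measured KLF genes, 6 were up-regulated at LOL at an adjusted p under 0.05 (limma, Benjamini-Hochberg over all 24415 rows), namely *KLF2*, *KLF4*, *KLF6*, *KLF10*, *KLF13* and *KLF15*. None was down-regulated, and *KLF5*, *KLF7* and *KLF9* did not pass. Over all rows, 41.0% passed the same test, 20.5% higher and 20.5% lower, so that a changed gene was common in these arrays. This even split depended on the scaling, since median centring of each array gave 14.7% higher and 23.3% lower rows. Among rows with a mean log2 signal of 4 or over, 27.1% were higher and 35.1% lower, and 5 of the 7 KLF genes in this range were higher. Under a mean of 4, 13.6% of rows were higher and 4.81% lower, and of *KLF4* and *KLF5*, the KLF genes in that range, *KLF4* was higher. With a fold over 2 in addition, 4.87% of rows were called (2.22% higher and 2.65% lower), and among the KLF genes only *KLF10* was. In 5 of the 9 genes every LOL array lay above every NOL array, which held for 19.1% of all rows, while 20.3% of all rows had every LOL array below every NOL array. The median difference of the 9 genes, LOL minus NOL, was 0.375 on the log2 scale, against 0.06 over all rows. Because the genes were chosen with earlier results of these data known, these counts are not an open test of the family. RNA was taken from whole cultures, so that fewer cells of a type and less RNA per cell cannot be told apart in any of these values.

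**Figure D1:**
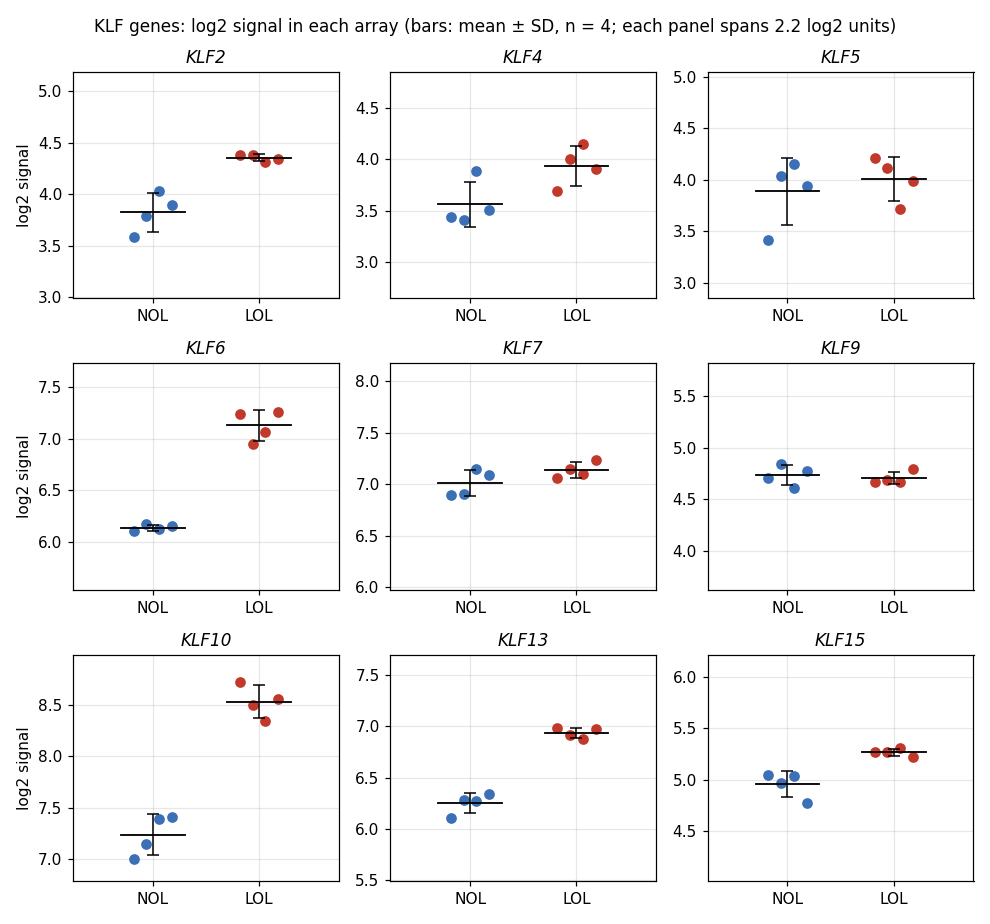
Log2 signal (vertical axis) of the 9 measured KLF genes in each of the 4 NOL (blue) and 4 LOL (red) arrays, with mean and SD in black; each panel spans the same number of log2 units. *KLF10* and *KLF6* show the widest separation of the groups, whereas the arrays of *KLF5*, *KLF7* and *KLF9* lie among each other.

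The genes are described by branch, beginning with the SIN3-binding one. *KLF10*, first found as a gene that TGF-beta induces early in human osteoblasts, read 7.00, 7.15, 7.39 and 7.41 in NOL arrays 1 to 4 and 8.72, 8.50, 8.34 and 8.56 in LOL arrays 1 to 4 (log2 signal). The groups stood well apart, with the lowest LOL array 0.93 above the highest NOL array, and NOL 1 and NOL 2 were lower than NOL 3 and NOL 4. The means were 7.24 ± 0.198 at NOL and 8.53 ± 0.157 at LOL (SD, n = 4 each), a rise of 1.29 (SE 0.111, 95% interval 1.04 to 1.54), or 2.45-fold, with an adjusted p of 9.3e-06 by limma. Its rise ranked at place 316 of all rows.

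*KLF13*, which activates the chemokine gene *CCL5* late after activation of human T cells, gave 6.11, 6.28, 6.27 and 6.34 at NOL and 6.98, 6.91, 6.87 and 6.97 at LOL. All LOL arrays were above all NOL arrays, and both groups were tight. The difference was 0.68 (SE 0.0669), 1.60-fold, with an adjusted p of 2.2e-05 by limma. *KLF9*, a gene that thyroid hormone and glucocorticoids induce and whose protein interacts with the progesterone receptor in the uterus, gave 4.71, 4.84, 4.61 and 4.77 at NOL and 4.67, 4.69, 4.67 and 4.79 at LOL. Its groups overlapped almost fully, and the difference of -0.03 (95% interval -0.178 to 0.123) did not pass, with an adjusted p of 0.774 by limma.

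In the acetyltransferase-binding branch, *KLF6*, a gene induced by injury whose protein activates the cell cycle inhibitor gene *CDKN1A* in human cells, was steady at NOL with 6.10, 6.17, 6.12 and 6.15. At LOL it read 7.24, 6.95, 7.07 and 7.26. Every LOL array was higher than every NOL array, and the LOL arrays spread more widely than the NOL arrays. The means were 6.14 ± 0.0311 and 7.13 ± 0.147, and the rise of 0.995 (SE 0.0778, 95% interval 0.821 to 1.169) had an adjusted p of 4.9e-06 by limma. At 1.99-fold this gene lay directly under the 2-fold line and was not called, and its interval reaches to both sides of that line. *KLF6* was called in 4 of 17 settings of the analysis, which were quantile normalization (1.07) and the removal of NOL 2 (1.01), LOL 2 (1.05) or LOL 3 (1.01), whereas *KLF10* was called in all 17.

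*KLF7*, the nearest relative of *KLF6* and known from growth of nerve fibres, read 6.90, 6.91, 7.15 and 7.09 at NOL and 7.06, 7.15, 7.10 and 7.24 at LOL. The groups overlapped, and the difference of 0.125 (95% interval -0.048 to 0.298) did not pass, with an adjusted p of 0.228 by limma.

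*KLF2* and *KLF4*, both induced by fluid flow in endothelial cells, had low signals. *KLF2*, which also keeps T cells quiescent, gave 3.58, 3.79, 4.03 and 3.90 at NOL and 4.38, 4.38, 4.31 and 4.34 at LOL. The LOL arrays were nearly identical and all above the NOL arrays, of which NOL 1 was lowest. The difference was 0.53 (SE 0.0914, adjusted p of 0.00108 by limma). *KLF4*, a factor of epithelial differentiation that is also used to reprogramme cells, gave 3.44, 3.41, 3.88 and 3.51 at NOL and 3.69, 4.00, 4.15 and 3.90 at LOL. Here LOL 1 lay below NOL 3, so that the groups overlapped. The difference of 0.375 (SE 0.125) passed with an adjusted p of 0.0363 by limma but was lost in 10 of 15 alternatives, among them the removal of NOL 1, NOL 2, NOL 4, LOL 2, LOL 3 or LOL 4. Adjusted p-values of *KLF4* ranged from 0.0067 to 0.0947 over these alternatives, and without LOL 3 the difference was 0.30 with an adjusted p of 0.0904. No fold is given for either gene because the NOL mean lay under 4, a range where a fold from arrays is only a lower bound.

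*KLF5*, a factor of proliferating epithelium, gave 3.42, 4.04, 4.15 and 3.94 at NOL and 4.21, 4.12, 3.72 and 3.99 at LOL. The arrays of both levels were mixed, with NOL 1 lowest of all and LOL 1 highest. The difference was 0.12 (95% interval -0.237 to 0.482, adjusted p of 0.579 by limma), and without NOL 1 it was -0.0333.

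*KLF15* stands outside these branches and controls amino acid breakdown and gluconeogenesis in mouse liver and muscle. It gave 5.05, 4.97, 5.04 and 4.78 at NOL and 5.27, 5.27, 5.31 and 5.22 at LOL, so that the LOL arrays were close together and all higher. The difference was 0.31 (SE 0.0721), 1.24-fold, with an adjusted p of 0.00658 by limma. *KLF3*, a CtBP-binding repressor of fat cell and B cell genes, had no row of its own. The row shared with LOC100140787 gave 6.28, 6.34, 6.26 and 6.29 at NOL and 6.25, 6.15, 5.99 and 6.24 at LOL, with all LOL arrays below all NOL arrays by as little as 0.01 and an adjusted p of 0.156 by limma for the difference of -0.14. If this row is counted as *KLF3*, the counts of changed KLF genes stay at 6 higher and 0 lower.

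**Figure D2:**
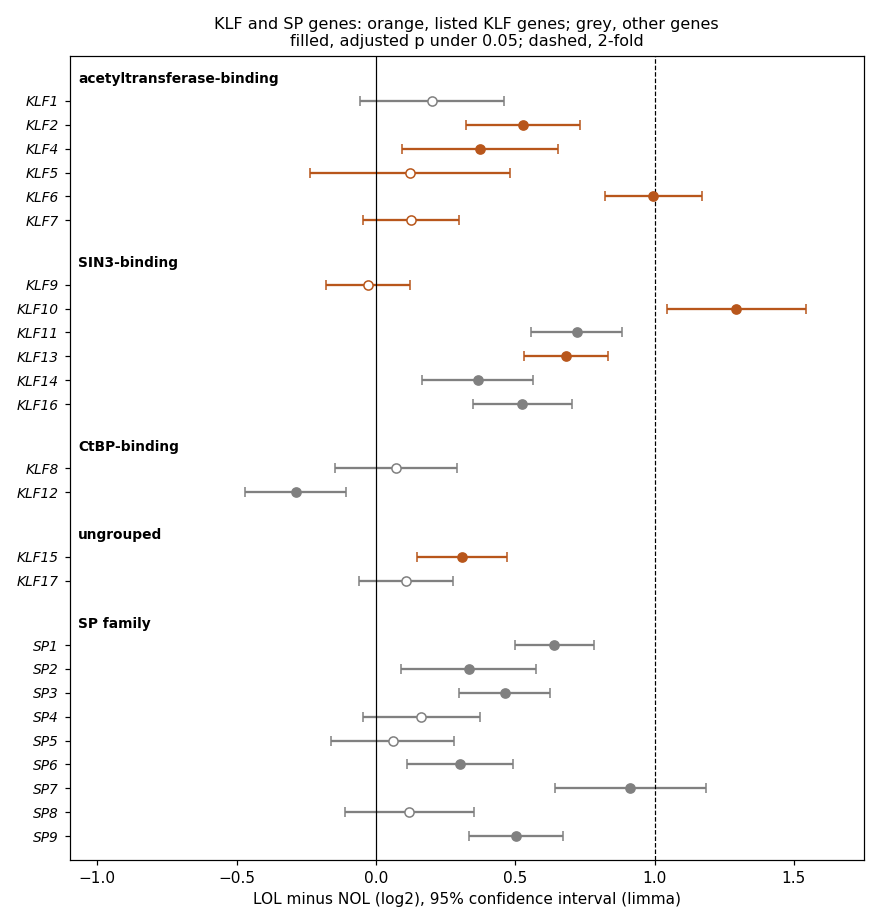
LOL minus NOL (log2, horizontal axis) with the 95% interval from limma for every measured KLF and SP gene, grouped by cofactor branch; listed KLF genes are orange, others grey, and filled points passed the adjusted p. Only *KLF10* lies past the dashed 2-fold line with its whole interval, *KLF6* lies on the line, and *KLF12* is the only filled point below 0.

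The 7 KLF genes outside the list were read in the same fit. *KLF11*, the other TGF-beta-inducible early gene, rose from 5.22, 5.17, 5.24 and 5.30 to 6.11, 5.85, 5.98 and 5.87. This was a difference of 0.72, or 1.65-fold, with no overlap (adjusted p of 2.6e-05 by limma). *KLF16* rose by 0.53 (1.44-fold, adjusted p of 0.00043) and *KLF14*, at low signal, by 0.365 (adjusted p of 0.00807). *KLF12*, a CtBP-binding repressor, was the only KLF gene to fall, from 7.20, 7.23, 7.28 and 7.17 to 6.90, 6.84, 6.83 and 7.16. Its LOL 4 array lay within 0.01 of the lowest NOL array, and the fall of 0.29 (1.22-fold, adjusted p of 0.0175 by limma) was lost without LOL 2, with an adjusted p of 0.0502. *KLF1*, *KLF8* and *KLF17*, all under a log2 signal of 4, differed by 0.20, 0.07 and 0.11 and did not pass (adjusted p-values of 0.197, 0.589 and 0.286).

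Counted by branch, and against 20.5% of all rows higher (27.1% at a mean signal of 4 or over), 5 of the 6 SIN3-binding genes were up-regulated and only *KLF9* did not pass, with a median difference of 0.604. Of the 6 acetyltransferase-binding genes, 3 were up-regulated and 3 did not pass, with a median of 0.288. In this branch *KLF1*, *KLF2*, *KLF4* and *KLF5* had NOL means under 4, where folds are lower bounds. In the SIN3-binding branch only *KLF14* did. The rise of *KLF4* was also lost in 10 of 15 alternatives. Of the 2 measured CtBP-binding genes, none was up-regulated and 1 was down-regulated. The branches come from textbook knowledge but were set side by side after the values had been seen, and the difference between branches was not tested. The SP genes, whose products share the same zinc fingers, were up-regulated in 6 of 9 cases, against the same 20.5% of rows, and none was called or down-regulated. *SP1* (0.64, 1.56-fold, adjusted p of 2.5e-05) and *SP3* (0.46, 1.38-fold, adjusted p of 0.00058), present in nearly all cells, rose without overlap. *SP7*, the bone factor osterix, rose by 0.91 (adjusted p of 0.00018) from 3.38, 3.35, 3.59 and 3.24 to 4.49, 4.05, 4.52 and 4.15 with no overlap. *SP9* (0.50, adjusted p of 0.00043), *SP6* (0.30, adjusted p of 0.0172) and *SP2* (0.33, adjusted p of 0.0328) also passed, the last with overlapping groups and with the adjusted p lost in 9 of 15 alternatives, among them the removal of NOL 1, NOL 3, NOL 4, LOL 1 or LOL 4. *SP4*, *SP5* and *SP8* differed by 0.16, 0.06 and 0.12 and did not pass (adjusted p-values of 0.198, 0.663 and 0.39). In all, 9 of these 16 other KLF and SP genes rose and 1 fell, with a median difference of 0.318.

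To see whether close relatives moved by different amounts, the log2 signals of 2 genes were subtracted within each array and the differences compared between LOL and NOL. Each comparison used an exact two-sided permutation test over the 8 arrays, whose smallest possible p is 0.0286, and p-values were adjusted over the 5 pairs. *KLF6* rose by 0.87 more than *KLF7* (95% interval 0.62 to 1.12, exact p = 0.0286, adjusted p = 0.0476). *KLF10* rose by 0.573 more than *KLF11* (0.299 to 0.846), and the change of *KLF9* was 0.71 below that of *KLF13* (interval of the change -0.872 to -0.548), both with the same exact p and adjusted p. These 3 pairs had no overlap between the groups, and their exact p is the smallest possible. The pairs were chosen with earlier results of these data known, so that these p-values are not an open test of whether relatives differ. The pairs *KLF2* and *KLF4* (0.152, interval -0.164 to 0.469, exact p = 0.229) and *KLF8* and *KLF12* (0.36, interval -0.031 to 0.751, exact p = 0.114) did not pass. *KLF8*, *KLF4* and the NOL arrays of *KLF2* had means under 4, so that these values do not bound how differently the genes of these pairs moved. The zinc finger sequences of related genes are alike, and the probe sequences were not used here, so that hybridisation of 1 gene's RNA to another's probes was not tested.

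**Figure D3:**
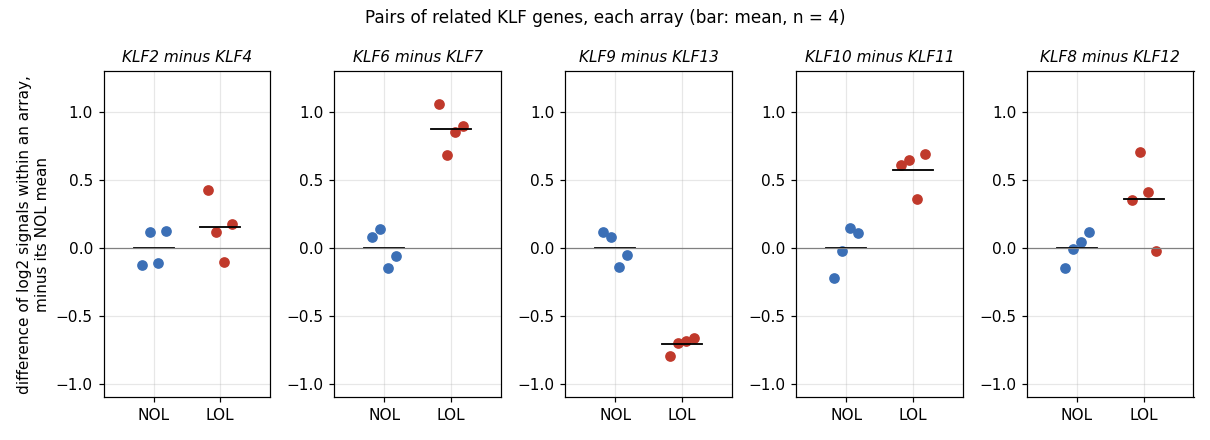
Difference of the log2 signals of 2 related KLF genes within each array, minus the NOL mean of that difference (vertical axis), for 4 NOL (blue) and 4 LOL (red) arrays; black bars are means. The LOL arrays of *KLF6* minus *KLF7*, *KLF9* minus *KLF13* and *KLF10* minus *KLF11* lie wholly apart from the NOL arrays, and those of the other 2 pairs overlap.

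By the smallest root mean square distance over the 8 arrays, each row centred on its NOL mean, the profiles most like that of *KLF10* were those of *ACTN1* (alpha-actinin, which crosslinks actin, 0.0755 on the log2 scale), *DUS3L* (a tRNA-modifying enzyme, 0.0835) and *MID1* (a ubiquitin ligase on microtubules, 0.0865). These rows rose by 1.27, 1.26 and 1.27. The median distance was 0.9 over the rows with 1 symbol, listed KLF genes excluded. For *KLF9*, the only listed gene with a negative difference, the nearest rows were *TYMS* (thymidylate synthase, 0.0286), *MRPL24* (a mitochondrial ribosomal protein, 0.0287) and *NPTX1* (a neuronal pentraxin, 0.0316), against a median of 0.227. This likeness is a description over 8 arrays in 2 groups.

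In the RefSeq annotation of assembly ARS-UCD2.0, the 10 listed KLF genes have 20 direct neighbours, of which 17 had a row. Of these, 3 were higher, 8 lower and 1 called at LOL, where 20.5% of all rows were higher, 20.5% lower and 4.87% called. The lower ones include *KLF12*, the neighbour of *KLF5*, which is the KLF gene already described above as falling. *AZIN1*, a regulator of polyamine synthesis beside *KLF10*, fell by 0.42 (adjusted p of 0.000555), and *ODF1*, the neighbour on the other side, differed by 0.04 and did not pass (adjusted p of 0.741). Beside *KLF6*, LOC515358 rose by 0.24 (adjusted p of 0.00613). Both neighbours of *KLF13*, *TRPM1* (a channel of retina and melanocytes) and *APBA2* (a neuronal adaptor), rose by 0.29 and 0.26 (adjusted p-values of 0.0301 and 0.0207). Both neighbours of *KLF2*, *EPS15L1* and *AP1M1* of endocytosis and vesicle sorting, fell by 0.36 and 0.23 (adjusted p-values of 0.000867 and 0.0198). The adjusted p of *TRPM1* was lost in 9 of 15 alternatives, that of *APBA2* in 5 of 15 and that of *AP1M1* in 6 of 16, each with single arrays left out among them, and none exceeded 0.0851. The called neighbour was *METTL21A*, a lysine methyltransferase of chaperones beside *KLF7*, which fell by 1.24 (adjusted p of 3.21e-06 by limma), while *KLF7* itself did not pass.

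Next, genes that act with or upstream of KLF factors were read from lists. Of 20 cofactors and ubiquitin ligases of KLF proteins, 17 were measured. Of these, 6 were higher, 9 were lower and 2 did not pass, with a median difference of -0.24. Among all rows 20.5% were higher and 20.5% lower, and at a mean signal of 4 or over 27.1% and 35.1%. *FBXO32*, a ubiquitin ligase subunit of muscle wasting, rose from 5.98, 6.10, 6.12 and 6.03 to 8.22, 8.12, 7.94 and 8.13, which is 4.13-fold (adjusted p of 4.7e-08 by limma). *FBXW7*, the ubiquitin ligase subunit that marks *KLF2* and *KLF5* proteins for degradation, fell from 5.91, 5.69, 5.51 and 5.54 to 3.88, 3.71, 3.68 and 3.86, at least 3.68-fold lower (adjusted p of 3.6e-07). *SAP30*, a subunit of the SIN3 complex, rose at least 2.88-fold (adjusted p of 4.1e-05), with arrays between 3.30 and 3.58 at NOL and between 4.43 and 5.24 at LOL, LOL 3 being the lowest of the latter. In these 3 genes the groups did not overlap. Other genes of the SIN3 complex, named after their values were seen, went both ways. *SIN3A* (0.22) and *SIN3B* (0.42) rose, while *HDAC1* (-0.685), *HDAC2* (-0.46) and *RBBP7* (-0.415) fell. The corepressors *NCOR1* (-0.16, adjusted p of 0.0551) and *CTBP1* (0.10, adjusted p of 0.282) did not pass. *CTBP2*, the other CtBP gene, and the deacetylase gene *HDAC3*, also named after their values were seen, were lower (-0.54 and -0.69) without overlap.

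The ERK5 and MEF2 pathway induces *KLF2* and *KLF4* in endothelial cells. Of its 13 listed genes, 4 were higher, 3 lower and 6 did not pass. All rows gave 20.5% higher and 20.5% lower, or 27.1% and 35.1% at a mean signal of 4 or over. *MEF2A*, which codes for a MEF2 factor, rose from 8.24, 8.13, 8.26 and 8.20 to 9.31, 9.22, 9.25 and 9.31, with no overlap (2.09-fold, adjusted p of 5.2e-07 by limma). *MEF2D* (-0.17, adjusted p of 0.134) and *KRIT1*, a brake on this pathway (-0.07, adjusted p of 0.397), did not pass. The other higher genes, named after their values were seen, were the histone deacetylase genes *HDAC5* (0.95), *HDAC7* (0.40) and *HDAC9* (0.29). The lower genes were *MAP3K3* (-0.365), *MAP2K5* (-0.22) and *CCM2* (-0.535). The list median was -0.11. The list mixes genes that drive the pathway with genes that restrain it, so that its counts cannot be read as 1 sign.

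The TGF-beta pathway induces *KLF10* and *KLF11*, and 15 of its 17 listed genes were measured. Of these, 6 were higher, 2 lower and 7 did not pass, with 3 called higher, 1 called lower and a median of 0.05. The shares of all rows were 20.5% higher and 20.5% lower, with 2.22% called higher and 2.65% called lower. The ligand gene *TGFB1* read 6.92, 7.24, 7.17 and 7.19 at NOL and 8.99, 8.94, 8.92 and 8.97 at LOL, 3.54-fold higher (adjusted p of 1.2e-07 by limma). *TGFB2* rose 2.34-fold (adjusted p of 8.9e-05), with arrays between 3.86 and 4.19 at NOL and between 4.84 and 5.59 at LOL. *SMAD7*, the inhibitor that KLF10 protein is known to repress in human cells, gave 5.60, 5.67, 5.75 and 5.59 at NOL and 7.00, 6.71, 6.71 and 6.66 at LOL, 2.17-fold higher (adjusted p of 3.9e-06). All of these LOL arrays were above all NOL arrays. The gene called lower, named after its values were seen, was the coreceptor gene *TGFBR3*, which read 5.80, 5.88, 5.74 and 5.86 at NOL and 4.65, 4.86, 4.62 and 4.85 at LOL, 2.11-fold lower (adjusted p of 2.4e-06). *LTBP1*, which stores the latent ligand, and the corepressor *TGIF1* differed by 0.05 and 0.16 and did not pass (adjusted p-values of 0.492 and 0.0883).

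For hormone receptors and genes that glucocorticoids induce, relevant to *KLF9* and *KLF15*, 14 of 15 were measured. There were 3 higher, 7 lower and 4 that did not pass (median -0.19). The all-row shares were 20.5% higher and 20.5% lower, or 27.1% and 35.1% at a mean signal of 4 or over. The thyroid hormone receptor gene *THRB* rose 2.12-fold (adjusted p of 4.9e-06), with arrays between 4.40 and 4.71 at NOL and between 5.59 and 5.78 at LOL. *FKBP5*, a chaperone cofactor that glucocorticoids and progesterone induce, fell 2.10-fold (adjusted p of 8.1e-07), with arrays between 8.60 and 8.80 at NOL and between 7.57 and 7.67 at LOL. *FKBP4* (-0.16, adjusted p of 0.06) and *THRA* (0.12, adjusted p of 0.126) did not pass. The glucocorticoid receptor gene *NR3C1* and the progesterone receptor gene *PGR* were named after their values were seen. *NR3C1* rose 1.64-fold (adjusted p of 2.3e-05 by limma), and *PGR* fell 1.78-fold (adjusted p of 5.6e-06 by limma). A further row of *PGR*, at low signal, differed by 0.015 and did not pass.

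Among 40 genes described as KLF targets in other cell types, 36 were measured, and 18 were higher, 11 lower and 7 did not pass, with 7 called higher and 5 called lower and a median of 0.231. Over all rows 20.5% were higher and 20.5% lower, and 2.22% were called higher and 2.65% called lower. The list mixes targets that KLF proteins activate with others that they repress, so that its directions cannot be read as 1 sign. *TXNIP*, the inhibitor of thioredoxin, fell 10.8-fold (adjusted p of 4.1e-05), from 6.42, 7.12, 8.11 and 8.43 to 3.94, 4.04, 4.18 and 4.17. The NOL arrays of this gene were widely spread, with NOL 1 lowest. *TAGLN*, the smooth muscle gene transgelin that KLF4 represses in rodent muscle cells, rose 8.89-fold (adjusted p of 2.3e-07), with arrays between 5.26 and 6.02 at NOL and between 8.66 and 8.81 at LOL. *CYP19A1*, the aromatase of oestradiol synthesis, fell 7.44-fold (adjusted p of 6.2e-09), with arrays between 8.55 and 8.78 at NOL and between 5.75 and 5.84 at LOL. *CEBPD* and *LGALS3* differed by -0.15 and by less than 0.01 and did not pass (adjusted p-values of 0.094 and 0.974). *CDKN1A*, *CCL5* and *BCAT2* were picked after their values were seen, as textbook targets of *KLF6*, *KLF13* and *KLF15*. *CDKN1A* read 8.63, 8.67, 8.62 and 8.63 at NOL and 9.89, 9.87, 9.88 and 9.87 at LOL, 2.36-fold higher (adjusted p of 1.2e-07). *CCL5* was higher by 0.27 at low signal (adjusted p of 0.0215), which was lost in 5 of 16 alternatives, among them the removal of NOL 1, NOL 4 or LOL 1. *BCAT2*, an enzyme of branched-chain amino acid breakdown, fell 1.36-fold (adjusted p of 0.00035). Other metabolic genes of the list, also named after their values were seen, went in different directions. *SLC2A4* rose by 0.38 (adjusted p of 0.00157) and *PDK4*, at low signal, fell by 0.38 (adjusted p of 0.0012). *PRODH* (0.265, adjusted p of 0.0845) and *GPT* (0.095, adjusted p of 0.373) did not pass.

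**Figure D4:**
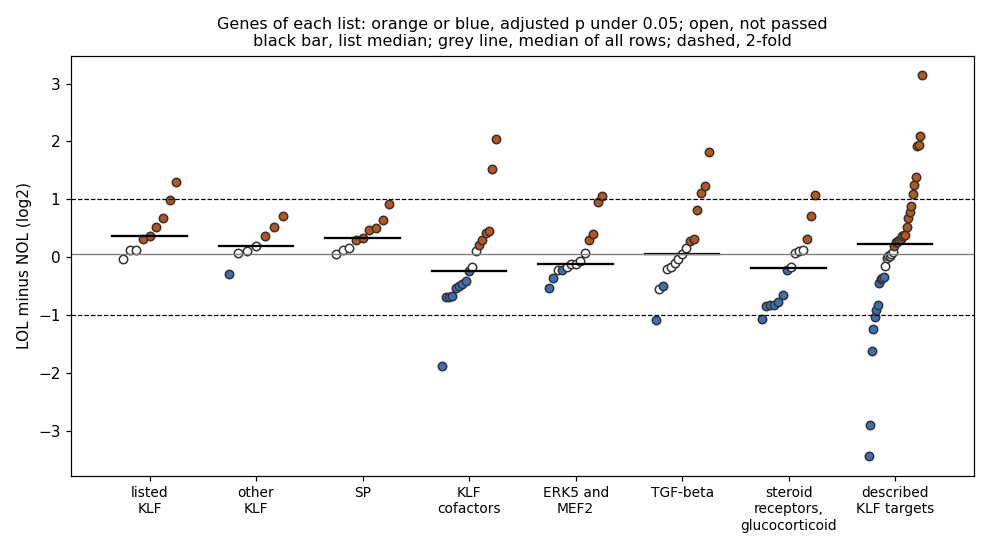
LOL minus NOL (log2, vertical axis) of each measured gene in 8 lists; orange and blue points passed the adjusted p, open points did not, black bars are list medians and the grey line is the median of all rows. The listed KLF, other KLF and SP genes lie mostly above the grey line, while the cofactors, the ERK5 and MEF2 pathway and the glucocorticoid list have medians below 0.

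Of 10 hypoxia reference genes, 9 were higher and 1 lower. The rises were led by *NDRG1* (3.65), *ANKRD37* (3.10) and *EGLN3* (2.56). The lower gene, named after its values were seen, was *PFKFB4*, called at -1.09 (2.13-fold, adjusted p of 1.2e-05 by limma). For the reference genes and the marker counts that follow, the shares of all rows were 20.5% higher and 20.5% lower. Of 11 granulosa cell markers, 7 were lower and 2 higher at LOL, and their linear signals summed to 7050 to 7200 in NOL arrays and 4450 to 4800 in LOL arrays. *CYP19A1* (-2.90), *HSD17B1* (1.94) and *FOXL2* (-1.81) changed by the largest amounts, and *NR5A2* (0.12) and *GATA4* (-0.07) did not pass. For the endothelial markers, which bear on *KLF2* and *KLF4*, the sums were 84.9 to 99.5 in NOL and 143 to 158 in LOL arrays, and 71.9 to 76.6 and 75.2 to 91.6 without *CLDN5*. Of these 10 markers *CLDN5* (1.93), *TEK* (0.42, adjusted p of 0.0131) and *ESAM* (0.40, adjusted p of 0.0133) were higher. The others did not pass, among them *VWF* (0.11), *ROBO4* (0.20) and the defining genes *PECAM1* (means 2.43 and 2.57) and *KDR* (2.0 and 2.03). Of 9 leukocyte markers, *CSF1R* (0.36, adjusted p of 0.0156) and *CD68* (0.31, adjusted p of 0.033, lost in 8 of 16 alternatives) were higher, with sums of 88.7 to 98.1 and 98.4 to 122. *CD14* (0.11), *CD3E* (0.20) and *PTPRC*, which read 1.91 and 1.87, did not pass. All 9 smooth muscle and fibroblast markers were higher, led by *TAGLN* (3.15), *MYH11* (1.76) and *CNN1* (1.66). Their sums were 3220 to 3560 and 4500 to 4670, with the largest signal from *LUM* (means 11.3 and 11.465), which rose by 0.165. The 5 theca markers summed to 316 to 372 and 512 to 538. *INSL3*, the one with the largest signal (means 7.442 and 8.478), was the only one higher and was called (1.03, adjusted p of 1.2e-05). *LHCGR* was lower (-0.82, adjusted p of 0.00143), while *NR2F2* (0.07), *PTCH1* (-0.07) and *CYP17A1* (means 3.38 and 3.35) did not pass. The part of these cell types in the KLF differences was not tested.

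**Figure D5:**
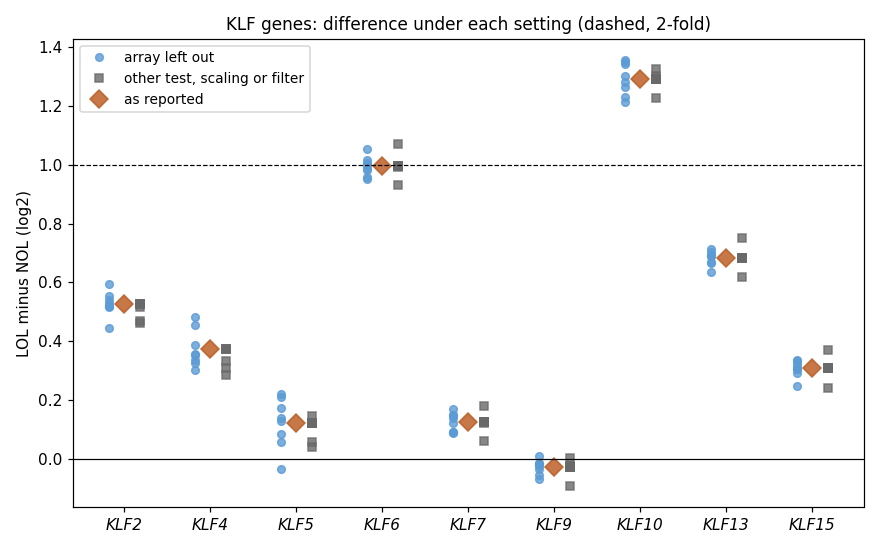
LOL minus NOL (log2, vertical axis) of each listed KLF gene as reported (orange diamonds), without 1 array at a time (blue) and under other tests, scalings or filters (grey); the dashed line marks 2-fold. *KLF10* stayed above the line between 1.21 and 1.36, *KLF6* lay on both sides of it between 0.93 and 1.07, and only *KLF5* and *KLF9* changed sign.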

How the data were processed

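The log2 values were deposited by the authors after the robust multichip average had been applied to the scanned 1-colour arrays, a method that corrects background, normalizes between arrays and summarises probes; the version is not given in the sources used here. Values carry 2 decimals and were used as deposited, and the probe-level files were not used. LOL was compared with NOL in all 24415 rows with limma 3.58.1 in R 4.3.3 (2 groups, moderated variances, two-sided), in place of the methods' analysis of variance, which was an alternative. Rows were called at an adjusted p under 0.05 and a fold over 2. Pair tests used Python 3.11.15 with scipy 1.17.1, and their intervals come from the pooled SD. Arrays have no sequencing depth, and the number of arrays limits the precision. Folds whose lower group had a mean log2 signal under 4 are lower bounds, and no fold is given there for rises under 2-fold.

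The array annotation gave 1 symbol for 18457 rows, several for 688 and none for 5270. Genes with several rows were read from the row with the highest mean. The text names all listed KLF genes, other KLF and SP genes and the rows nearest in profile. Of each other list it names up to 3 called genes with the largest difference and up to 2 high-signal genes that did not pass. Neighbours, defining markers, some targets, cofactors and receptors, and genes on which a count or sum rests were chosen after their values were seen. Members, lists and pairs were chosen with earlier results of these data known. The 13 lists held 172 genes, of which 160 were measured. The scripts were tested on simulated data. Alternatives were the analysis of variance, trended robust variances, median centring, quantile normalization, a filter on low signals, the replicate number as a block, the mean of a gene's rows, array weights and leaving out each array. Counting the *KLF3* row and a fold of at least 1.9 were added after the data were seen. Genomic and protein sequences were not used here.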

Additional observations from a re-analysis of the deposited data

Results flagged for a closer look

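In 170 groups of 4 arrays, 3 single arrays lay far from the other 3 of their group, with a gap beyond the 95% critical value of Dixon's test. Chance gives such a gap in about 1 of 20 groups. *KLF9* read 4.79 in LOL 4 and 4.67 to 4.69 in the other LOL arrays, and without any single array its difference did not pass. *SMAD7* read 7.00 in LOL 1 and 6.66 to 6.71 in the others, all above NOL. *LTBP1* read 8.52 in NOL 3 and 8.46 to 8.47 in the others.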

How the results depend on the processing

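Over 16 alternatives, 60 of 84 genes examined kept direction and side of the adjusted p throughout, and the number of listed KLF genes higher was 5 or 6, with 0 lower in each. The number of called KLF genes was 1 and became 2, with *KLF6* added, under quantile normalization and with a fold of at least 1.9, and ranged from 1 to 2 when 1 array was left out (2 without NOL 2, LOL 2 or LOL 3). Among other KLF and SP genes, the number lower ranged from 0 to 1 when 1 array was left out (0 without LOL 2). Signs changed only in genes that did not pass. With quantile normalization, *KLF9* was 0.0017, *KLF8* -0.0198, *SP5* -0.0334, *LGALS3* 0.0364, *PTCH1* 0.0147 and *ODF1* -0.0397. With median centring, *SP5* was -0.005, *LTBP1* -0.015 and *ODF1* -0.025. With 1 array left out, *KLF5* ranged from -0.0333 to 0.2192, *KLF9* from -0.0683 to 0.0083, *KLF8* from -0.0108 to 0.1258, *SP5* from -0.0333 to 0.1167, *ODF1* from -0.0308 to 0.0992 and *LGALS3* from -0.0733 to 0.0633. The adjusted p was gained by *FKBP4* in 7 alternatives, *NCOR1* in 5, *TGIF1*, *CEBPD* and *NR5A2* in 3 each and *MEF2D*, *THRA* and *CD3E* in 1 each. Median centring gave 3585 rows higher and 5693 lower (477 and 783 called), against 5017 and 4999 (542 and 647 called) as deposited. The median of all rows was 0.06 as deposited, -0.005 after median centring and 0.022 after quantile normalization. The causes were not tested. The filter on low signals removed *KLF4* and the other genes with both means under 4. Arrays of the same replicate number correlated at -0.0268 to 0.114 in their deviations. So few arrays cannot decide whether they were paired, and the labels give only the number. With the replicate block 6 listed KLF genes were higher, and of the 84 genes *SP2* (0.3325), *CD68* (0.3125), *TRPM1* (0.295) and *AP1M1* (-0.2325) lost the adjusted p, with limma values of 0.0501 to 0.07. Signals under 4 limit *KLF2*, *KLF4* and *KLF5*.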
